A study of Arabidopsis thaliana with 24 samples.

Results

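The comparison described here sets 3 arrays of seedling green parts grown on medium (set 100) against 9 arrays of whole plants grown on soil (sets 22, 23 and 24). The arrays were chosen by their labels alone, and together they are 12 of the 24 arrays of the series, a developmental survey of Arabidopsis thaliana, accession Col-0, on one-colour oligonucleotide arrays. Set 100 holds the green parts of seedlings raised at 20 °C on 0.5x GM, as its labels call the medium, and no sucrose is named for it. The soil plants grew at 23 °C and 65% relative humidity and were taken whole, past the floral transition and not yet bolting. Their 3 sets carry identical labels that also speak of developmental drift, so the set number is all that separates them. All plants grew in continuous light, and the labels state no age for any of these sets. A second pair of sets serves as a yardstick: set 96, green parts of seedlings on the same medium at 20 °C that resembled plants of set 7, and set 7, the green parts of soil-grown seedlings kept at 23 °C and at 65% humidity. Substrate, temperature, tissue and stage all differ between set 100 and the soil plants and cannot be told apart, and in bulk RNA neither can fewer cells of a type and less RNA per cell. Whether the 3 arrays that share a set number stem from separately grown material is not given by the labels. The p-values therefore measure only the spread between these samples, and the small number of arrays limits the precision. In the main fit, standard errors and p-values of genes rest on the spread between arrays of one set, pooled over the 24 arrays. They leave out the spread between soil sets 22, 23 and 24.

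Several processes named below have well-known reporters. Plants that run short of sugar turn to protein and branched-chain amino acids as respiratory fuel and recycle cell contents by autophagy. Touch, wounding and handling switch on a group of calcium sensors, zinc finger and WRKY factors, ubiquitin ligases and wall enzymes within minutes to hours. ER bodies are compartments of the endoplasmic reticulum in Brassicaceae that store beta-glucosidases and are found in seedlings and roots, while rosette leaves have few unless they are wounded. Dividing cells make core histones and mitotic proteins, and chloroplasts make part of the photosynthetic apparatus from their own genome.

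A difference is set 100 minus the mean of sets 22, 23 and 24 on the log2(intensity + 7) scale, which understates the change of genes near the bottom of the scale, and it is given with its standard error. The filter kept a probe set where 3 or more of the 24 arrays lay above the 40th percentile of all intensities, and a gene is counted as measured where such a probe set names it alone. A list member also needs a symbol in the annotation, so list genes carried by a locus ID alone are left out. Of 528 list genes given by locus, 84 had a symbol and 81 a tested probe set. Measured were thus 11 of 28 touch and wound genes, 6 of 29 for cold, drought and abscisic acid and 5 of 21 for anthocyanins. They were 4 of 25 for starch and sucrose and 4 of 33 for nuclear photosynthesis. A probe set was called at an adjusted p under 0.05 in limma's moderated test over the 15477 probe sets tested. Of these, 9575 were called (61.9%), 4316 higher in set 100 (27.9%) and 5259 lower (34%). The large differences ran mostly the other way, with 1210 probe sets higher by 1 or more (7.82%) and 629 lower by 1 or more (4.06%), and 101 higher (0.653%) against 22 lower (0.142%) by 3 or more. The 3 arrays of set 100 lay above all 9 soil arrays for 2953 probe sets (19.1%), 2932 of them called (18.9%), and below them all for 3635 (23.5%), 3617 of them called (23.4%). Counts of list members given below are to be read beside these shares. The median difference over all probe sets tested was -0.04. Across probe sets, arrays of one set correlated at a mean r of 0.982, arrays of different soil sets at 0.963, and arrays of set 100 with soil arrays at 0.868. Quality controls moved with the comparison. The 3'/5' signal ratio of actin was 3.60 ± 0.79 (SD, n = 3) in set 100 and 9.53 ± 1.49 (SD, n = 9) in soil plants, and that of ubiquitin was 2.32 ± 0.49 in set 100 and 3.44 ± 0.45 in soil plants (exact permutation test, two-sided p = 0.0045 for each, the smallest 220 splits allow, 0.0106 adjusted over 7 measures). The GAPDH ratio was 1.39 ± 0.18 in set 100 and 1.51 ± 0.53 in soil plants (exact permutation p = 0.75). The spike-in BioB read 44.9 ± 19.0 in set 100 and 82.2 ± 14.4 in soil plants (exact permutation p = 0.0045), with array 100 A lowest at 23.2. The part of RNA quality and labelling in the gene results was not tested, except where a value below bears on it.

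Genes known to answer touch and wounding were higher in set 100. Of 11 such genes measured, 10 were called higher and 0 lower, with a median difference of 2.79, where 27.9% of all probe sets were higher. For 9 of them set 100 lay above every soil array (19.1% of all probe sets). XTH18 (AT4G30280), a xyloglucan endotransglucosylase/hydrolase that cuts and rejoins wall polymers, had the largest difference of all genes ranked. It read (all such values are MAS5 intensities) 755, 781 and 867 in the 3 arrays of set 100, against 1.30 to 80.5 (median 5.56) in the 9 soil arrays, a difference of 5.52 (SE 0.31, adjusted p = 2.0e-12). The 3 medium arrays lay close together and far above the highest soil array. STZ (AT1G27730), a zinc finger repressor of stress responses, read 1245, 1517 and 1513 in set 100 and 39.3 to 625 (median 68.0) in soil plants, a difference of 3.61 (SE 0.16, adjusted p = 3.0e-14). PUB23 (AT2G35930), a U-box ubiquitin ligase that damps immune signalling together with PUB22 and PUB24, read 425, 417 and 388 in set 100 and 2.44 to 112 (median 11.2) in soil plants (difference 4.30, SE 0.26, adjusted p = 1.0e-11). None of these 3 genes overlapped between the groups. PUB22 and PUB24 were higher by 2.37 and 0.82 (adjusted p = 6.9e-11 and 3.3e-06), PUB26 by 1.31 and PUB25 by 0.76 (adjusted p = 3.9e-08 and 3.1e-05). Of 8 measured PUB genes, in a list drawn up after values were seen, 6 were called higher, 1 lower and 1 not called (27.9% of all probe sets were higher and 34% lower). With the soil set as a random block 5 were higher and 0 lower. WRKY22 (AT4G01250), a defence-linked transcription factor, was higher by 2.79 (SE 0.10, adjusted p = 1.1e-15), with 231, 237 and 239 in set 100 and 16.8 to 56.3 (median 23.5) in soil plants. Among the calmodulin-like calcium sensors, CML38 was higher by 3.08, CML23 by 1.32 and CML42 by 0.96 (adjusted p = 9.6e-10, 2.0e-06 and 6.8e-09). CML37 was not called, at 20.1, 26.0 and 25.1 in set 100 and 4.37 to 75.7 (median 10.2) in soil plants (difference 0.46, adjusted p = 0.19).

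The soil plants did not form 1 level for these genes. For all 11, set 22 had the highest mean of the 3 soil sets, and the moderated F test called 10 of them as different among soil sets, a call made for 17.4% of all probe sets tested. STZ averaged 1425 ± 156 in set 100, 493 ± 173 in set 22, 42.7 ± 3.19 in set 23 and 61.1 ± 15.8 in set 24 (SD, n = 3 each). CML38 averaged 343 ± 31.4 in set 100 and 269 ± 155 in set 22, where 1 array reached 364 and overlapped set 100, against 6.43 ± 1.24 in set 23 and 15.6 ± 4.31 in set 24. CML37 averaged 23.7 ± 3.17 in set 100, 52.7 ± 36.9 in set 22, 7.73 ± 1.87 in set 23 and 8.96 ± 4.07 in set 24. Set 22 thus lay above set 100 for this gene alone among those 3. The list's median difference was 1.12 against set 22, 3.17 against set 23 and 3.20 against set 24. These contrasts share the arrays of set 100 and are given side by side as a description. Leaving set 22 out as a whole gave 11 of 11 genes called higher and a median of 3.19.

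**Figure D1:**
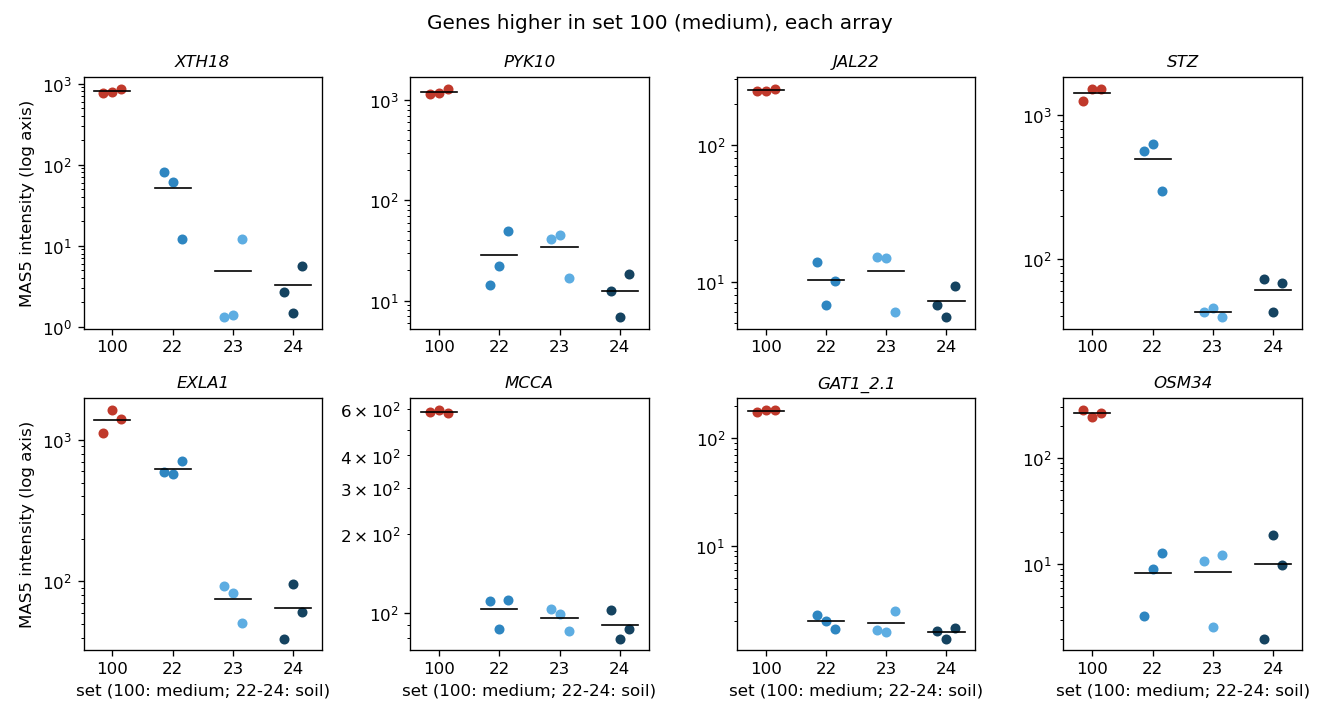
MAS5 intensity of 8 genes higher in set 100, on log axes, with 1 point per array and a bar at each set mean; set 100 (red) stands left of soil sets 22, 23 and 24 (blue). The 3 arrays of set 100 sit above all 9 soil arrays in every panel, and set 22 lies between set 100 and the other soil sets for XTH18, STZ and EXLA1.

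Genes of the ER body system held several of the largest differences. PYK10 (AT3G09260), the main beta-glucosidase stored in ER bodies, read 1147, 1187 and 1300.0 in set 100, against 6.82 to 49.5 (median 18.3) in soil plants, a difference of 5.39 (SE 0.22, adjusted p = 1.7e-14). Every soil array lay under 50, a small part of the level on medium. The jacalin-related lectins JAL33 (AT3G16450), JAL22 (AT2G39310) and JAL34 (AT3G16460), partners of PYK10 in protein complexes, were higher by 4.01, 3.97 and 3.92 (SE 0.22, 0.13 and 0.11; adjusted p = 1.5e-12, 5.7e-16 and 8.6e-17). JAL22 read 247, 246 and 257 in set 100 and 5.48 to 15.2 (median 9.32) in soil plants. NAI2 (AT3G15950), needed to form ER bodies, read 232, 226 and 235 in set 100 and 14.6 to 28.4 (median 19.7) in soil plants (difference 3.15, SE 0.10, adjusted p = 1.7e-16). NAI1 (AT2G22770), the bHLH factor that drives these genes, was higher by 1.77 (SE 0.13, adjusted p = 1.7e-10), with 32.1, 34.1 and 34.8 in set 100 and 0.717 to 13.1 (median 4.45) in soil plants. The groups did not overlap for any of these 6 (for 19.1% of all probe sets set 100 lay above every soil array). For PYK10, JAL33, JAL22 and JAL34, among the 15 highest, this was a condition of their choice. JAL23 (AT2G39330), another jacalin-related lectin, went the other way, with 57.1, 53.5 and 59.8 in set 100 and 61.0 to 261 (median 103) in soil plants (difference -1.02, SE 0.20, adjusted p = 1.8e-04, but 0.051 with the soil set as a random block). JAL22 and JAL23 lie on chromosome 2 with 1 annotated protein-coding gene between them. The 7 genes of this list, drawn up after values were seen, thus comprised 6 higher and 1 lower (27.9% and 34% of all probe sets) with a median of 3.92. PYK10 and NAI2 are also known as root genes, and roots are absent from the label of set 100 but may be present in whole plants. Of 25 root marker genes listed, 3 were measured: those 2 and EXPA18, an expansin of root hairs, which was lower at 5.22 to 11.6 in set 100 against 13.7 to 26.7 in soil plants (difference -0.78, adjusted p = 9.6e-04). The root hair expansin EXPA7 did not pass the filter on low values, at 3.29 to 13.5 in set 100 and 2.08 to 15.5 in soil plants. The other root markers, and all 10 floral organ markers, had no probe set that carries their symbol alone in the annotation used and were not analysed here. The share of root tissue was not tested.

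Wall-loosening genes differed in both directions. Of 9 XTH genes 5 were measured, and of these 4 were higher and 1 lower (27.9% and 34% of all probe sets), with a median of 1.68. XTH19 (AT4G30290) read 100.2, 88.7 and 99.7 in set 100 and 4.77 to 38.7 (median 16.3) in soil plants (difference 2.13, SE 0.17, adjusted p = 9.6e-10). XTH16 was higher by 1.68 and XTH33 by 1.33 (adjusted p = 1.7e-08 and 1.0e-05), while XTH32 (AT2G36870) was lower at 108, 106 and 116 in set 100 against 223 to 387 (median 278) in soil plants (-1.34, adjusted p = 1.2e-11). All 3 measured expansin-like A genes were higher. EXLA1 (AT3G45970), also a member of the touch list, read 1111, 1631 and 1399.6 in set 100 and 39.4 to 713 (median 93.3) in soil plants, a difference of 3.18 (SE 0.17, adjusted p = 1.3e-12). EXLA3 was higher by 2.25 and EXLA2 by 1.26 (adjusted p = 7.5e-12 and 6.0e-07), and for all 3 the 2 groups were separate. The alpha- and beta-expansins, the classical loosening proteins, comprised 0 higher and 6 lower among 9 measured of 14 (34% of all probe sets were lower), with a median of -0.72. With the soil set as a random block 4 were lower, since EXPA8 (adjusted p = 0.11) and EXPB1 (adjusted p = 0.062) were then not called. EXPA16 (AT3G55500) read 10.2, 10.3 and 15.1 in set 100 and 25.7 to 47.5 (median 32.4) in soil plants (difference -1.15, adjusted p = 9.1e-08), and EXPA4 was lower by 0.87 on the log2 scale (adjusted p = 6.3e-06). Of 7 measured among 15 GH9 endoglucanases, 0 were higher and 3 lower (34% of all probe sets were lower). GH9C2 (AT1G64390) held 92.9, 92.5 and 93.4 in set 100, nearly 1 value, against 173 to 491 (median 338) in soil plants, where set 22 was lowest at 208 ± 30.4 (SD, n = 3). Its difference was -1.63 (SE 0.09, adjusted p = 3.1e-12), and GH9B8 gave -1.72 (adjusted p = 5.0e-11).

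Other wall families were divided, as were all probe sets (27.9% higher and 34% lower). Among 8 cellulose synthase-like genes 3 were higher and 3 lower, and the 3 higher were CSLA03, a glucomannan synthase (1.35), CSLD2, known from tip-growing cells (1.29), and CSLC04, a synthase of the xyloglucan backbone (0.83), with adjusted p = 2.3e-10, 9.6e-11 and 9.4e-10. Among 15 measured of 22 trichome birefringence-like genes, whose proteins acetylate wall polymers, 5 were higher and 4 lower, and 3 and 3 with the soil set as a random block. TBL38 (AT1G29050) read 307, 299 and 296 in set 100 and 45.1 to 83.5 (median 56.8) in soil plants (difference 2.20, SE 0.09, adjusted p = 6.7e-15), and TBL26 read 35.5, 34.1 and 39.2 in set 100 and 84.7 to 332 (median 191) in soil plants (-2.01, SE 0.27, adjusted p = 1.3e-06). The medians of these lists, -0.01 and 0.04, were near that of all probe sets.

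Enzymes that burn branched-chain amino acids were higher in set 100. All 5 measured were called and separate between groups, with a median of 1.59, in a list extended after values were seen. Of all probe sets 27.9% were higher, and for 19.1% set 100 lay above every soil array. IVD (AT3G45300), isovaleryl-CoA dehydrogenase of leucine breakdown, read 429, 429.8 and 413 in set 100 and 52.5 to 64.7 (median 60.3) in soil plants (difference 2.71, SE 0.09, adjusted p = 3.7e-16). MCCA (AT1G03090), the biotin-carrying subunit of methylcrotonyl-CoA carboxylase, read 584, 597 and 582 in set 100 and 79.9 to 112 (median 98.9) in soil plants (2.53, SE 0.08, adjusted p = 3.4e-16). Both had a narrow spread on either side. MCCB, the other subunit, was higher by 1.59, ETFQO, which passes the electrons to ubiquinone, by 1.33, and ALDH6B2, of valine breakdown, by 0.89 (adjusted p = 4.7e-11, 5.2e-13 and 1.3e-09). The moderated F test called 0 of the 5 as different among the soil sets, a call made for 17.4% of all probe sets. GAT1_2.1 (AT1G15040), a glutamine amidotransferase, read 176, 180.2 and 183 in set 100 and 1.38 to 2.52 (median 1.68) in soil plants, near the bottom of the scale, a difference of 4.40 (SE 0.08, adjusted p = 2.1e-19). The ATG8 genes, whose products coat autophagosomes, comprised 5 higher and 0 lower among 9 measured with a median of 0.28. ATG8E (AT2G45170) read 341, 473 and 438 in set 100 and 84.0 to 221 (median 141) in soil plants (1.44, SE 0.14, adjusted p = 1.9e-08), and ATG8B was higher by 1.31 (adjusted p = 4.9e-12). ATG8D, APG8A, APG8H and ATG8F were not called, with differences of 0.01, 0.03, 0.06 and 0.18. Of 11 measured among 15 SWEET sugar transporters, 4 were higher (27.9% of all probe sets were) and 1 lower, and without array 100 C 3 were higher and 0 lower. SWEET16 (AT3G16690), a sugar carrier of the vacuole membrane, read 188, 186 and 188 in set 100 and 11.6 to 33.8 (median 23.8) in soil plants (2.77, SE 0.12, adjusted p = 3.4e-14). SWEET2, another vacuolar carrier, was higher by 0.88 (adjusted p = 5.9e-06), and the call of SWEET4 as lower (-0.39, adjusted p = 0.03) was lost without array 100 C (-0.27, adjusted p = 0.2). The 4 measured genes of starch metabolism were all called lower, and 2 of them with the soil set as a random block (adjusted p = 0.088 for APL4 and 0.22 for SBE2.2). Neither was called in every fit that left out 1 array of set 100, APL4 not without 100 A and SBE2.2 not without 100 B or 100 C. The largest difference was that of APL3 (AT4G39210), a subunit of ADP-glucose pyrophosphorylase, at 22.9, 18.1 and 19.8 in set 100 and 47.8 to 96.2 (median 70.8) in soil plants (-1.50, SE 0.13, adjusted p = 1.6e-09).

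Defence genes moved in both directions. OSM34 (AT4G11650), an osmotin-like antifungal protein, read 280.3, 239.7 and 262 in set 100 and 2.01 to 18.7 (median 9.86) in soil plants, a difference of 4.14 (SE 0.24, adjusted p = 3.1e-12). PDF1.4, a defensin, was higher by 3.04 and THI2.2, a thionin, by 2.63 (SE 0.14 and 0.30; adjusted p = 7.3e-14 and 1.4e-07). On the other side stood CHI (AT2G43570), a chitinase, at 35.2, 41.2 and 34.1 in set 100 against 87.5 to 397 (median 229) in soil plants (-2.40, SE 0.32, adjusted p = 1.4e-06). RING1 (AT5G10380), a ubiquitin ligase of defence-related cell death, read 315, 301 and 272 in set 100 and 628 to 1363 (median 1037) in soil plants (-1.73, SE 0.16, adjusted p = 5.0e-09). The groups were separate for all 5. ATLP-1, a thaumatin-like protein, was lower (-1.85), as was the defensin-like LCR68 (-1.04) (adjusted p = 1.6e-10 and 1.6e-09). PDF1.2 and THI2.1, classical markers of the jasmonate response, were not called: PDF1.2 read 155, 167 and 126 in set 100 and 41.5 to 379 (median 123) in soil plants (difference 0.21, adjusted p = 0.58), and THI2.1 differed by 0.03 (adjusted p = 0.93). PDF1.2b, a close relative of PDF1.2, was called higher (1.09, adjusted p = 0.02), but not without array 100 A, 100 B or 100 C (adjusted p = 0.06, 0.055 and 0.0502). With it, 4 of the 10 defence peptide and pathogenesis-related genes measured were higher, and 4 lower (27.9% and 34% of all probe sets). All 4 of the measured WRKY genes that were called higher, WRKY22, WRKY6 (2.31), WRKY47 (0.64) and WRKY53 (0.56), are linked to defence, senescence or stress (adjusted p = 8.0e-10, 8.6e-04 and 0.03 for the last 3), while WRKY20 was lower (-0.31, adjusted p = 0.0017). WRKY53 averaged 133 ± 11.7 in set 100, 265 ± 121 in set 22, 41.8 ± 4.54 in set 23 and 66.3 ± 24.8 in set 24 (SD, n = 3 each), so it was below set 22 and above the other soil sets. Without array 100 B (adjusted p = 0.11) or array 100 C (adjusted p = 0.075) it was not called. Among 5 measured senescence genes 3 were higher and 0 lower: WRKY6 and WRKY53 again, and GAMMA-VPE, a vacuolar processing enzyme (0.33, adjusted p = 0.0059). With the soil set as a random block 1 was higher, WRKY53 (adjusted p = 0.5) and GAMMA-VPE (adjusted p = 0.35) not being called, and GAMMA-VPE was not called without set 22 as a whole (0.16, adjusted p = 0.2) or set 23 (0.21, adjusted p = 0.072). SAG101 and SAG29 were not called, with differences of 0.17 and 0.20.

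Enzymes that glycosylate small molecules counted more higher than lower. Of 47 UGT genes, which glycosylate hormones and secondary compounds, 29 were measured, and of these 16 were higher (27.9% of all probe sets) and 5 lower (34%), with a median of 0.42. UGT73B1 (AT4G34138) read 137, 123 and 130.5 in set 100 and 12.9 to 28.5 (median 19.8) in soil plants (2.38, SE 0.11, adjusted p = 1.1e-13). UGT73B5 was higher by 2.13, UGT85A5 by 1.74 and UGT72E1, which glycosylates lignin precursors, by 1.56 (adjusted p = 1.5e-09, 5.8e-11 and 4.9e-10). UGT71B1 and UGT78D1, a flavonol rhamnosyltransferase, gave differences of -1.39 and -1.30 (adjusted p = 8.3e-12 and 5.8e-10). Beta-glucosidases other than PYK10 were divided, with 4 higher and 6 lower among 11 measured of 20. BGLU46 (AT1G61820), known to act on lignin precursors, read 42.9, 56.7 and 55.3 in set 100 and 0.880 to 7.86 (median 2.53) in soil plants (2.51, SE 0.16, adjusted p = 1.2e-11), and BGLU44 read 305, 359 and 347 in set 100 and 679.6 to 874 (median 754) in soil plants (-1.16, adjusted p = 4.9e-10). Among the serine carboxypeptidase-like genes, 11 of 23 were measured, with 2 called higher and 6 lower, and scpl31 at 2.17 and scpl35 at -2.05 were the extremes (adjusted p = 6.2e-10 and 1.6e-14). Of 7 measured among 13 glutathione transferases, 1 was higher and 5 lower, but 2 were lower without array 100 A. The largest difference was that of GSTU20 (AT1G78370) at 362, 368 and 383 in set 100 and 810.0 to 1601 (median 1237) in soil plants (-1.64, SE 0.09, adjusted p = 3.8e-12).

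Small families of membrane and signalling proteins also differed among their members. Of 8 measured among 15 tetraspanins, membrane scaffold proteins, 6 were higher and 0 lower (27.9% and 34% of all probe sets) with a median of 0.58. TET8 was higher by 1.50 (adjusted p = 4.0e-10), with set means of 1621 ± 197 in set 100, 1253 ± 291 in set 22, 355 ± 23.9 in set 23 and 418 ± 41.9 in set 24 (SD, n = 3 each), and 1 or more arrays of set 22 overlapped set 100. Of 6 measured among 11 RALF-like signalling peptides 2 were higher and 3 lower. RALFL22 read 683, 651 and 652 in set 100 and 88.5 to 255 (median 118) in soil plants (2.20, SE 0.09, adjusted p = 2.6e-14), and RALFL34 read 334, 288 and 298 in set 100 and 642 to 867 (median 753) in soil plants (-1.28, SE 0.08, adjusted p = 2.2e-11).

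Several of the genes named above are neighbours of a member of their own family. XTH18 and XTH19, EXLA1 and EXLA3, JAL33 and JAL34, UGT73B4 and UGT73B5, BGLU45 and BGLU46, and UGT85A2 and UGT85A5 are pairs with 0 annotated protein-coding genes between them, and in each pair both were higher in set 100. COR15A and COR15B, also adjacent on chromosome 2, were both lower. JAL22 and JAL23, with 1 gene between them, went opposite ways (3.97 and -1.02). Probe sets of such near copies can share signal, and the pairs were picked after values were seen.

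Hormone-linked genes included some of the larger falls. RR16 (AT2G40670) and ARR15 (AT1G74890) are type-A response regulators, which cytokinin induces and which feed back on its signalling. RR16 read 13.3, 8.78 and 9.39 in set 100 and 96.6 to 224 (median 139) in soil plants (-3.15, SE 0.12, adjusted p = 4.5e-15), and ARR15 read 16.2, 12.7 and 14.6 in set 100 and 35.4 to 71.5 (median 51.4) in soil plants (-1.42, SE 0.14, adjusted p = 2.1e-08). Both were separate between the groups, with set 100 below, which for RR16, among the 15 lowest, was a condition of its choice. All 3 measured GH3 genes, whose enzymes conjugate auxin or related acids to amino acids, were higher. WES1 (AT4G27260) read 322, 287 and 297 in set 100 and 31.0 to 69.7 (median 46.5) in soil plants (2.52, SE 0.17, adjusted p = 5.1e-11), GH3.17 was higher by 2.06 and GH3.3 by 0.79 (adjusted p = 2.9e-11 and 0.0012). IAA29 (AT4G32280), an auxin-response repressor, was lower at 11.7, 13.1 and 13.0 in set 100 against 24.6 to 79.6 (median 45.5) in soil plants (-1.56, SE 0.16, adjusted p = 4.6e-08).

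The 6 measured genes of cold, drought and abscisic acid response were all called, 2 higher and 4 lower (27.9% and 34% of all probe sets). COR15A (AT2G42540), which protects chloroplast membranes in the cold, read 51.4, 42.8 and 60.1 in set 100 and 283 to 556 (median 388) in soil plants (-2.77, SE 0.14, adjusted p = 2.9e-13). COR15B was lower with a difference of -1.10, and the dehydrin LTI30 with -1.15 (adjusted p = 1.7e-05 and 2.2e-04). The remaining gene called lower (-0.68, adjusted p = 6.8e-04) lost its call with the soil arrays as 1 group and with the soil set as a random block. HIS1-3 (AT2G18050), a drought-induced linker histone, read 199, 165 and 174 in set 100 and 23.0 to 86.9 (median 48.4) in soil plants (1.83, SE 0.15, adjusted p = 1.1e-09), and the dehydrin COR47 was higher by 0.81 (adjusted p = 9.1e-08). CCS (AT1G12520), the chaperone that loads copper into superoxide dismutase, read 63.2, 37.6 and 54.0 in set 100 and 271 to 459 (median 352) in soil plants (-2.68, SE 0.19, adjusted p = 6.8e-11). ARPN (AT2G02850), the copper protein plantacyanin, read 18.5, 10.9 and 15.6 in set 100 and 77.7 to 174 (median 146) in soil plants (-2.67, SE 0.17, adjusted p = 2.0e-11). These copper-linked genes, put side by side after their values were seen, had all 9 soil arrays above set 100.

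**Figure D2:**
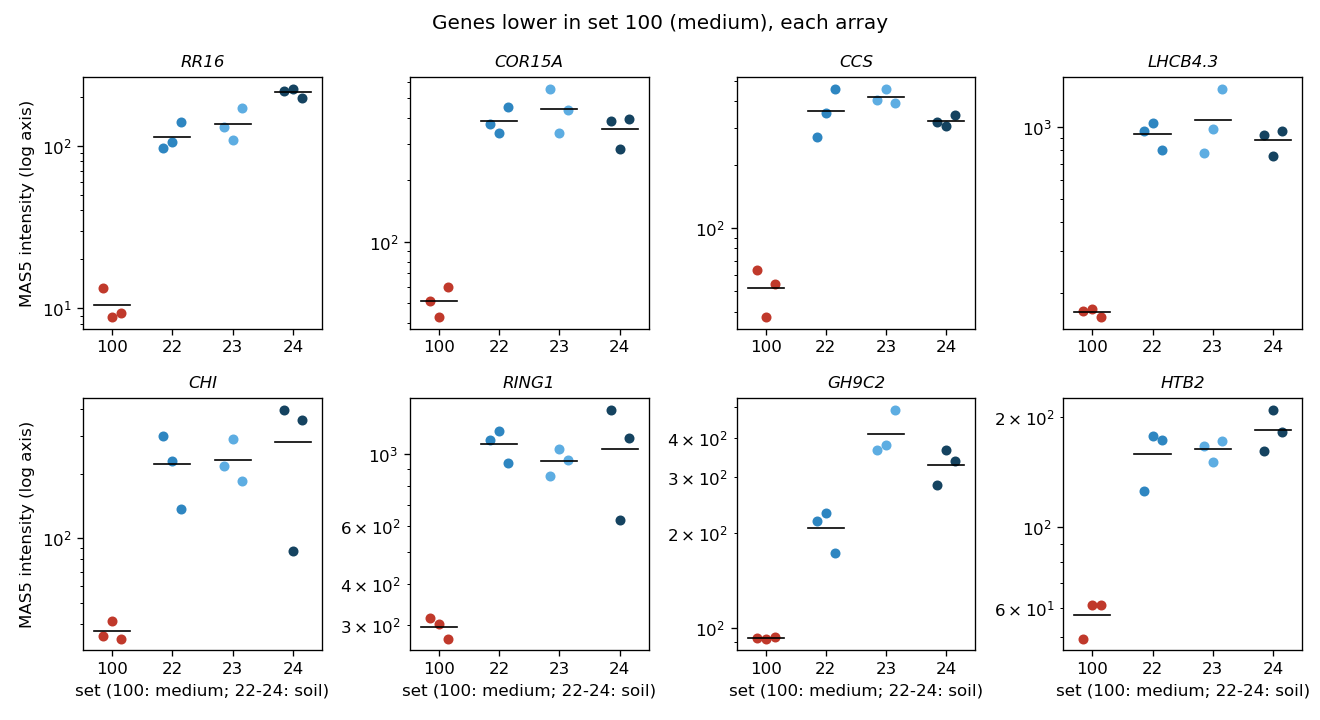
MAS5 intensity of 8 genes lower in set 100, on log axes, with 1 point per array and a bar at each set mean; set 100 (red) stands left of soil sets 22, 23 and 24 (blue). The 3 arrays of set 100 lie below all 9 soil arrays in every panel, and GH9C2 is lower in set 22 than in the other soil sets.

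Genes of cell division were lower in set 100, all 9 measured (34% of all probe sets were lower), with a median of -0.93 and no overlap between groups. They cover the spindle checkpoint (BUBR1, BUB3.1, BUB3.2), chromosome structure (TOPII, 3xHMG-box1, 3xHMG-box2), the centromeric histone HTR12, replication (PRL) and the phragmoplast (KINESIN-12B). BUB3.1 read 37.2, 26.4 and 25.1 in set 100 and 47.3 to 79.3 (median 62.0) in soil plants (-0.93, SE 0.12, adjusted p = 1.1e-06). 3xHMG-box2 read 49.7, 43.0 and 39.4 in set 100 and 76.0 to 142 (median 101) in soil plants (-1.10, SE 0.12, adjusted p = 6.4e-08). All 4 H2B histone genes were lower, with a median of -0.90, led by HTB2 (AT5G22880) at 49.4, 61.1 and 61.1 in set 100 and 125 to 209 (median 172) in soil plants (-1.45, SE 0.10, adjusted p = 4.1e-11). The F test called 0 of the 9 division genes as different among soil sets, a call made for 17.4% of all probe sets. Both lists were drawn up after values were seen.

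Most plastid-encoded genes read lower in set 100, and so did most bright probe sets. Of 69 measured, 5 were higher and 49 lower, with a median of -0.52, and with the soil set as a random block 2 were higher and 43 lower. The lower ones comprised 15 of 20 photosystem genes, 4 of 6 cytochrome b6f genes, 5 of 6 ATP synthase genes, 6 of 10 NDH genes and 14 of 20 genes for ribosomal proteins, RNA polymerase and MatK. psbB, the CP47 antenna of photosystem II, had the lowest difference, with 532, 637 and 594 in set 100 and 1284 to 2503 (median 1829) in soil plants (-1.64, SE 0.14, adjusted p = 2.4e-09). atpA, of the ATP synthase, read 1326, 2287 and 1796 in set 100 and 3229.8 to 4166 (median 3725) in soil plants (-1.04, SE 0.11, adjusted p = 5.8e-08). The 5 higher were psbN (0.69), ndhF (0.56), rpl20 (0.45), ndhK (0.40) and rbcL (0.39), the large subunit of Rubisco, with adjusted p = 0.0058, 0.031, 0.011, 0.0011 and 0.0022. Of these, ndhF (0.31, adjusted p = 0.28) and rpl20 (0.37, adjusted p = 0.074) were not called without array 100 A, rpl20 not without array 100 B (0.35, adjusted p = 0.089) and psbN not without array 100 C (0.51, adjusted p = 0.07). Over all genes the difference fell with level: the median was -0.01 for 8744 probe sets with a mean intensity under 100 over the 24 arrays, -0.06 for 5464 between 100 and 500, -0.26 for 762 between 500 and 1000 and -0.52 for 507 over 1000, of which 371 were called lower (73.2%). The brightest probe set of an array read 3240 to 4600.4 in set 100 and 5744 to 7373 in soil plants. Of the 69 plastid-encoded genes, 43 averaged over 1000, and their median was -0.61. The 12 between 500 and 1000 had a median of -0.43, the 12 between 100 and 500 one of -0.26. For the 2 under 100 it was 0.13. After quantile normalization 36 of the 69 were called lower and 6 higher, with a median of -0.29, and the median of the 507 brightest probe sets was -0.19. The plastid-encoded genes over 1000 then had a median of -0.24. Between 500 and 1000 they had -0.35, where all probe sets had -0.17. Between 100 and 500 they had -0.30, where all had -0.10, and under 100 they had 0.10, where all had -0.04. Without array 100 A the counts were 44 lower and 3 higher and the median -0.39, with 3 of 6 ATP synthase genes lower and 1 NDH gene higher.

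Nuclear genes of photosynthesis followed the same course. The 4 measured, LHCB4.1, LHCB4.2, RCA (Rubisco activase) and PRK (phosphoribulokinase), had differences of -0.67, -0.60, -0.58 and -0.48 (adjusted p = 3.1e-06, 8.2e-05, 1.4e-04 and 5.5e-05), but 0 of the 4 were called after quantile normalization, and LHCB4.1 and RCA then had positive differences of 0.03 and 0.04. LHCB4.3 (AT2G40100), a minor antenna protein, had a larger difference, with 169, 172 and 159 in set 100 and 752 to 1447 (median 957) in soil plants (-2.45, SE 0.14, adjusted p = 5.2e-12).

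Mitochondrion-encoded genes went the opposite way. All 8 measured genes for respiratory complexes were higher and separate between groups, with a median of 1.27. Of all probe sets 27.9% were higher, and for 19.1% set 100 lay above every soil array. cox2, of cytochrome c oxidase, read 66.3, 86.4 and 62.9 in set 100 and 10.6 to 25.05 (median 19.5) in soil plants (1.56, SE 0.13, adjusted p = 1.4e-09), and nad4L, of complex I, read 70.9, 72.8 and 64.9 in set 100 and 17.1 to 23.8 (median 21.5) in soil plants (1.46, SE 0.08, adjusted p = 1.2e-12). The smallest was nad4 at 0.60 (adjusted p = 1.4e-04). nad1 was covered by 5 probe sets, which gave 0.64 to 1.72, all called. Of 5 other mitochondrial genes 4 were higher, among them matR, a maturase (2.04, adjusted p = 5.6e-09), and ccb452, of cytochrome c maturation (1.68, adjusted p = 5.2e-13), while ccb382 was lower (-0.79, adjusted p = 2.5e-05). All 8 respiratory genes stayed called higher after quantile normalization, with a median of 1.24. The probe for 25S ribosomal RNA, also a transcript without a long poly(A) tail, read 953 ± 377 (SD, n = 3) in set 100 and 312 ± 395 (SD, n = 9) in soil plants (exact permutation p = 0.032, two-sided, 0.0445 adjusted over 7 measures). The part of these quality measures in the mitochondrial result was not tested.

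**Figure D3:**
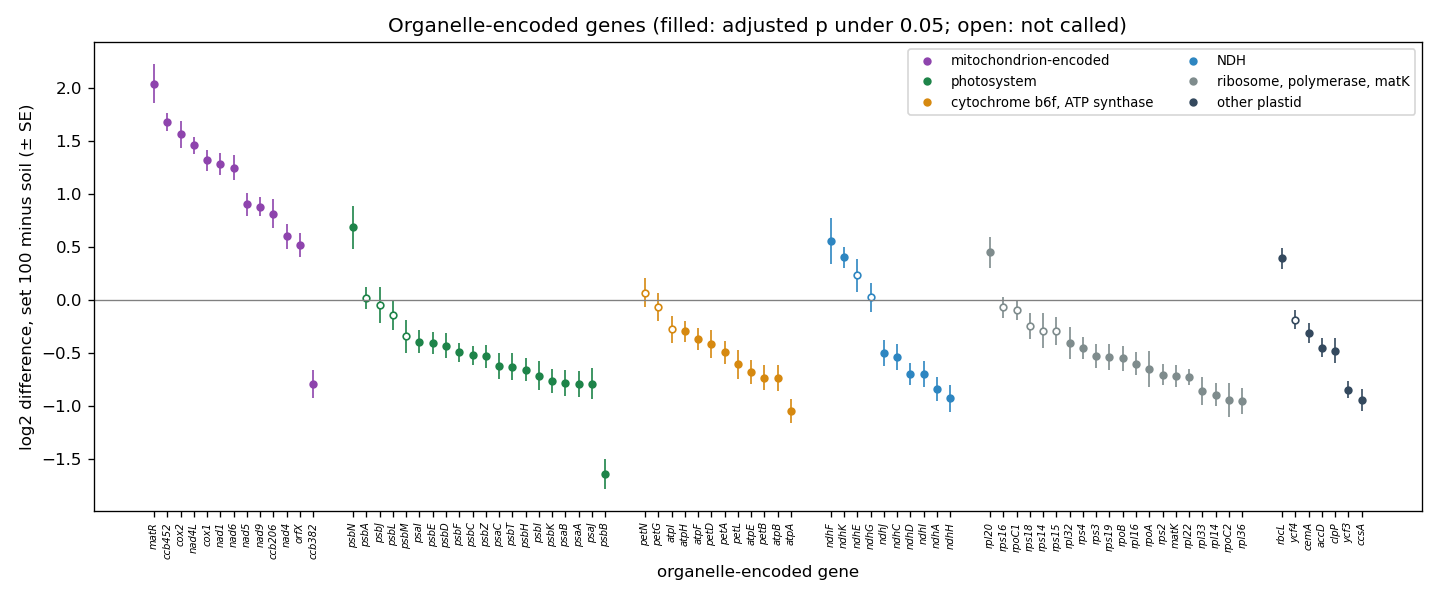
Difference between set 100 and the soil plants on the log2 scale, with its standard error, for 13 mitochondrion-encoded and 69 plastid-encoded genes, grouped by function along the horizontal axis; filled points are called. Mitochondrial genes are above 0 except ccb382, and most plastid genes lie between 0 and -1.04, with psbB at -1.64.

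Flowering genes went in both directions. The floral regulator AGL42 (AT5G62165) was lower at 11.2, 11.5 and 9.61 in set 100 against 33.1 to 59.8 (median 47.9) in soil plants (-1.58, SE 0.18, adjusted p = 1.1e-07). FD, the bZIP partner of the flowering signal FT, was higher by 0.64 (adjusted p = 0.015, but 0.051 without array 100 C), and AGL24 was not called (-0.07, adjusted p = 0.56). Of the floral repressors, SMZ was higher by 0.79, and SNZ and AGL16 were lower (-0.45 and -0.49) (adjusted p = 7.2e-05, 0.0013 and 4.0e-06). Of 5 anthocyanin and flavonol genes 0 were higher and 4 lower, but 2 were lower without array 100 A. The largest differences were those of UGT78D1 and of DFR (AT5G42800), dihydroflavonol reductase, at 18.9, 17.2 and 11.3 in set 100 and 31.5 to 73.9 (median 37.0) in soil plants (-1.12, SE 0.18, adjusted p = 1.0e-05). ICL, isocitrate lyase of the glyoxylate cycle in germinating seeds, was at 1.39 to 2.20 in set 100 and 0.771 to 1.84 in soil plants and was not called (difference 0.10, adjusted p = 0.39). Of 12 seed and embryo markers it was the 1 that could be followed by its symbol.

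**Figure D4:**
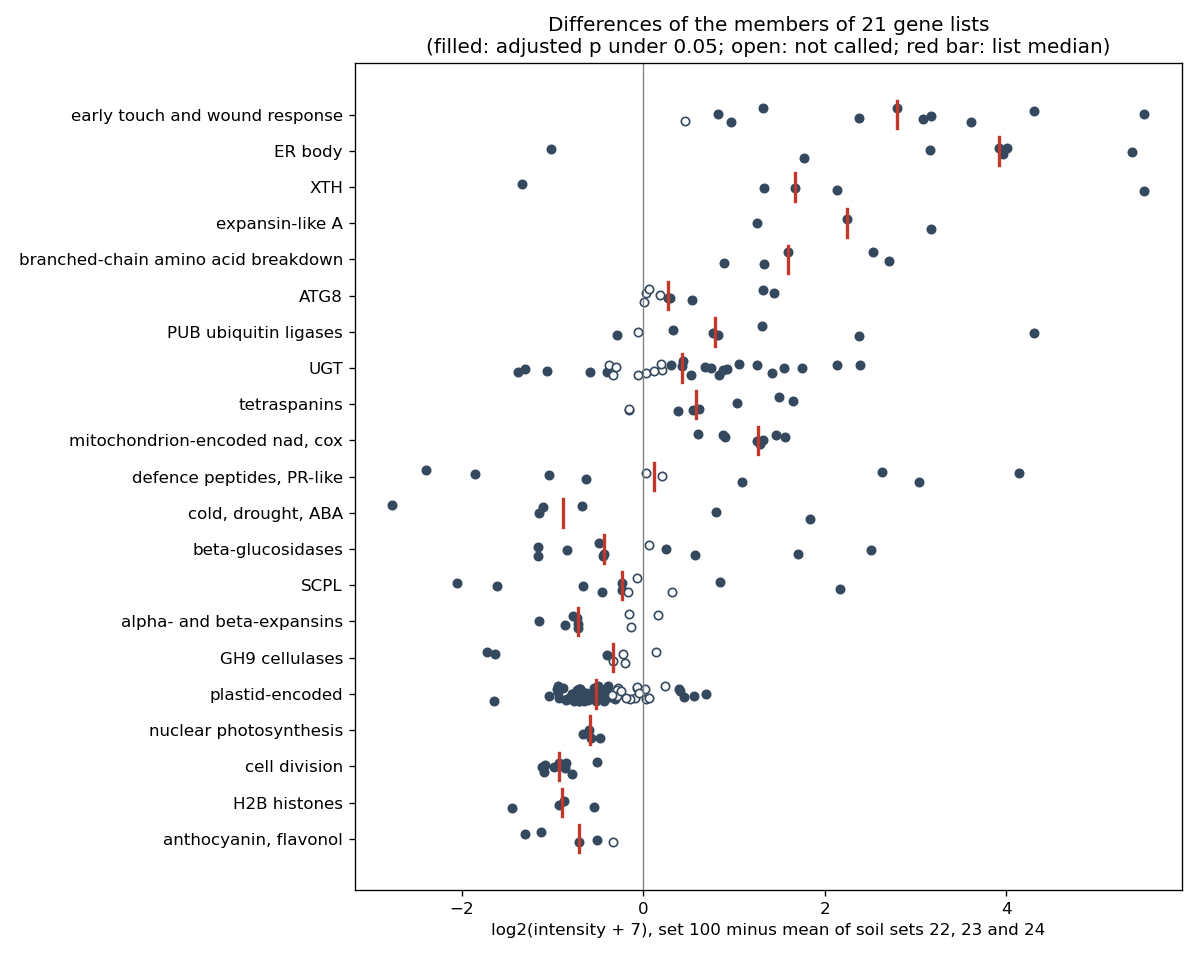
Differences between set 100 and the soil plants on the log2 scale for the measured members of 21 gene lists, 1 list per row, 1 point per gene; filled points are called, open points are not, and the red bar is the list median. Touch and ER body genes reach 5.52 and 5.39, and the cell division, H2B and nuclear photosynthesis lists have no member above 0.

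Many of the largest differences belong to genes that the annotation used here names only by locus. Among the 15 highest, AT1G62510 read 1089.8, 1176 and 1031 in set 100 and 8.68 to 42.3 (median 16.7) in soil plants, a difference of 5.40 (SE 0.15, adjusted p = 3.4e-17). AT5G39580 was higher by 4.62, AT2G05540 by 4.44, AT4G20860 by 4.20, AT4G33420 by 4.11, AT2G27080 by 4.11 and AT2G41640 by 3.95 (adjusted p of 4.1e-12 or smaller among these loci other than AT2G27080, at 1.2e-11). AT2G27080 and AT2G41640 had a raised set 22, with means of 279.9 ± 169 for AT2G27080 and 90.01 ± 18.2 for AT2G41640 (SD, n = 3), where set 23 had 9.68 ± 4.10 and 13.3 ± 2.46 (SD, n = 3). The lowest difference of all genes ranked was that of AT5G55450, with 24.2, 16.7 and 21.7 in set 100 and 408 to 894 (median 579) in soil plants (-4.47, SE 0.18, adjusted p = 1.6e-14). AT1G30250 read 10.04, 6.85 and 5.26 in set 100 and 123 to 264 (median 185) in soil plants (-3.68, SE 0.15, adjusted p = 1.2e-14). AT1G73600 read 103, 157 and 129 in set 100 and 644 to 1199 (median 1078) in soil plants (-2.90, SE 0.11, adjusted p = 2.2e-15). In all 3 the lowest soil array was several times the highest of set 100. The other 9 loci among the 15 lowest, AT5G59670, AT1G19960, AT1G13470, AT1G76960, AT1G31690, AT3G26960, AT5G03350, AT1G35710 and AT1G20070, had differences between -3.32 and -2.76. Of 7185 tested probe sets that name a locus alone 59.4% were called, and of 1214 that name a symbol 65.5%.

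How far the differences hold against each soil set was read from 3 contrasts that share the arrays of set 100. Set 100 differed from set 22 in 7889 probe sets (51%), from set 23 in 8921 (57.6%) and from set 24 in 8766 (56.6%). Against all 3 at once, 2731 probe sets were higher (17.6%) and 3462 lower (22.4%). Of the 1210 higher by 1 or more, set 22 was the soil set nearest to set 100 for 836 (69.1%), and of the 629 lower by 1 or more for 374 (59.5%). Arrays of set 100 correlated at a mean r of 0.898 with set 22, 0.851 with set 23 and 0.853 with set 24.

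The comparison of seedlings on medium and soil, set 96 minus set 7, shares no array with the one above and called 10943 probe sets (70.7%). Of the 4316 probe sets higher in set 100, 3014 were also higher in set 96 (69.8%, where 30.3% of all probe sets were) and 308 were lower. Of the 5259 lower in set 100, 3797 were also lower in set 96 (72.2%, where 40.4% of all were) and 408 were higher. A test of the difference between the contrasts called 7645 probe sets (49.4%). PYK10 was higher by 5.39 in set 100 and by 1.60 in set 96, a difference between the contrasts of 3.79 (adjusted p = 3.6e-08). JAL22 gave 3.97 in set 100 and 1.37 in set 96 (difference 2.60, adjusted p = 4.9e-09). For XTH18 the contrasts gave 5.52 in set 100 and 6.60 in set 96, and their difference of -1.08 was not called (adjusted p = 0.07). IVD, of leucine breakdown, gave 2.71 in set 100 and 2.95 in set 96 (difference -0.24, adjusted p = 0.16). ATG8E was higher by 1.44 in set 100 and 3.45 in set 96 (difference -2.01, adjusted p = 4.0e-07), and over the ATG8 list 9 of 9 were higher in set 96. DFR was lower in both, by 1.12 on the log2 scale in set 100 but with -4.44 in set 96 (difference 3.31, adjusted p = 8.4e-09). ICL gave 0.10 in set 100 and 4.14 in set 96 (difference -4.04, adjusted p = 1.0e-13). ICL read 1.39 to 2.20 in set 100 and 0.771 to 1.84 in soil plants, both near the bottom of the scale. Its difference between the contrasts thus rests on the rise in set 96, and a fall in set 100 could not be seen. Some genes were called in opposite directions. CHI was lower in set 100 (-2.40) and higher in set 96 (1.40, adjusted p = 0.0033), RING1 gave -1.73 in set 100 and 1.31 in set 96, and LTI30 gave -1.15 in set 100 and 1.25 in set 96, with differences between the contrasts of -3.80, -3.04 and -2.40 (adjusted p = 3.6e-06, 6.0e-09 and 2.0e-05). The mitochondrial gene nad9, of complex I, was higher in set 100 (0.88) and lower in set 96 (-0.68), with a difference between the contrasts of 1.56 (adjusted p = 3.8e-08). AT5G55450, the lowest of all in set 100, had -0.10 in set 96 (adjusted p of the difference = 4.7e-10). Set 7 holds green parts and sets 22 to 24 whole plants, so the contrasts also differ in the tissue of their soil side.

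**Figure D5:**
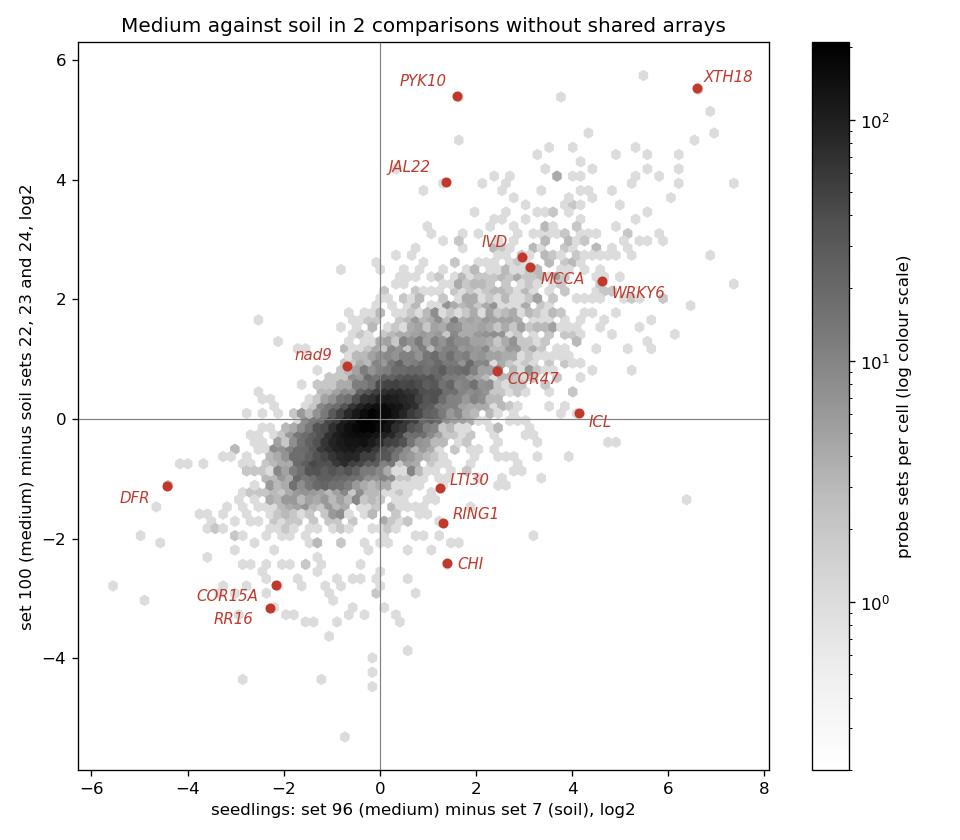
Difference between medium and soil on the log2 scale in seedlings (set 96 minus set 7, horizontal) and in the comparison with whole plants (set 100 minus sets 22, 23 and 24, vertical) for all 15477 probe sets tested, as a density in hexagonal cells with 15 genes marked in red. Most probe sets lie along a rising band; PYK10 and JAL22 lie above it, ICL, RING1 and CHI below it.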

How the data were processed

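The files hold linear one-colour array intensities, computed by the authors with MAS5 per the submitters' processing notes (version not given in the sources used here), with no detection calls used. The deposited intensities were taken as they stand with no further scaling. A value of 7 was added before log2. Of 22810 probe sets, 64 controls were left out, and 15477 of the other 22746 had 3 or more of the 24 arrays above the 40th percentile (22.8). limma 3.58.1 in R 4.3.3 fitted means of the 8 sets (lmFit, contrasts.fit, eBayes, two-sided), with Benjamini-Hochberg adjustment over all 15477. Set 100 was compared with the mean of sets 22, 23 and 24, with each of them, and with set 96 minus set 7. Quality measures had exact permutation tests over arrays. Genes and neighbours follow the platform annotation updated to TAIR10.1, where a locus with no symbol keeps its ID. The code was tested on simulated data.

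Members and lists were chosen with earlier results of these data known, and the ER body, ATG8, branched-chain, GH9, GH3, H2B, cell division, PUB, SWEET, RALF, defence peptide, copper, response regulator, expansin subgroup and organelle subgroup lists after their values were seen. Genes named were the 15 highest and 15 lowest differences among called genes (1 probe set each, alone in naming its gene) whose arrays of set 100 lay all above or all below the soil arrays, and, of each list, up to 4 called members with the largest differences and up to 2 called against the majority. Other members, uncalled ones among them, were chosen after their values were seen. Arrays have no read depth, and 3 arrays per set limit the precision. Array letters did not pair the sets: over 18 pairs of same-letter arrays, deviations correlated between -0.181 and 0.164. Alternatives covered the pseudocount, filter, normalization, samples fitted, variance model, set as a random block, arrays and soil sets left out.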

Additional observations from a re-analysis of the deposited data

Results flagged for a closer look

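Set 100 against soil plants and set 96 against set 7 differed in 7645 probe sets by the test of the difference itself (limma, adjusted p under 0.05), and in 100 of the 167 genes named in the text, against 49.4% of all probe sets. The named genes were largely chosen for large or called differences. Values given next are the first contrast minus the second on the log2 scale, for the named genes that were called in opposite directions or differed by 2 or more. Among the genes higher in set 100, the difference was 3.79 for PYK10, 2.60 for JAL22 and 2.02 for scpl31 (adjusted p = 3.6e-08, 4.9e-09 and 4.0e-06), so these exceeded the seedling contrast. WRKY6, WRKY53 and ATG8E were higher in both and gave -2.30, -2.21 and -2.01 (adjusted p = 2.1e-06, 2.3e-05 and 4.0e-07), more in seedlings. ICL, which was not called in set 100, gave -4.04 (adjusted p = 1.0e-13). It read near the bottom of the scale in set 100 and in soil plants, so its value rests on the rise in set 96. Among the genes lower in set 100, AT5G55450, AT1G30250, AT1G13470 and AT1G76960 gave -4.37, -2.58, -3.28 and -2.58 (adjusted p = 4.7e-10, 2.8e-08, 1.1e-06 and 2.5e-06), while DFR gave 3.31 (adjusted p = 8.4e-09), being lower still in seedlings. Calls in opposite directions were made for 8 genes. CHI, RING1, LTI30 and LHCB4.2 were lower in set 100 and higher in set 96, with -3.80, -3.04, -2.40 and -0.92 (adjusted p = 3.6e-06, 6.0e-09, 2.0e-05 and 2.2e-04). The plastid genes ndhF and rbcL, the mitochondrial gene nad9 and the MADS box gene AGL65 were higher in set 100 and lower in set 96, with 1.17, 0.76, 1.56 and 1.24 (adjusted p = 0.0077, 5.8e-04, 3.8e-08 and 4.0e-05).

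Single soil arrays stood far from the other 8 in 15 of 173 measures looked at, by Dixon's ratio. Its limit marks about 1 in 20 by chance only where all arrays come from 1 population. The 9 soil arrays form 3 sets, which differed by the F test in 17.4% of all probe sets, so the count has no chance level to be read against. Array 22 A was the highest for AT5G39580 (34.5, next 15.9), UGT73B4 (2.50, next 1.01), PDF1.4 (27.9, next 18.2), CCR2 (15.5, next 5.13) and ICL (1.84, next 1.25). Array 23 A was the lowest for cox2 (10.6, next 17.4) and the highest for matR (5.80, next 2.20). The values given for UGT73B4, CCR2, ICL, cox2 and matR, and those given next for JAL33 and GH3.3, lie toward the bottom of the scale, under the filter level of 22.8. Array 24 C was the lowest for JAL33 (1.41, next 11.3), array 22 C for AT1G73600 (644, next 889.6), array 23 C for GH3.3 (7.61, next 21.6) and array 24 A for LCR68 (598, next 785). Array 24 B was the highest for 3xHMG-box1 (58.0, next 46.3) and array 23 C for LHCB4.3 (1447, next 1039). Among quality measures, array 24 A had the highest GAPDH ratio (2.81, next 1.70) and array 23 B the highest 25S ribosomal RNA signal (1282, next 555).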

How the results depend on the processing

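With a pseudocount of 28 in place of 7, 798 probe sets were higher by 1 or more and 329 lower by 1 or more. Quantile normalization turned the differences of LHCB4.1 to 0.028, RCA to 0.044 and atpH to 0.092. The cause was not tested. Every other alternative kept the counts within 1.5 times: called probe sets numbered 9490 with a pseudocount of 1.75, 9727 of 22746 with no filter, 7848 of 11242 with the stricter filter, 9654 after quantile normalization, 8886 with 12 arrays in the fit, 8252 with the soil arrays as 1 group and 6827 with the set as a random block. Leaving out 1 array at a time gave 8527 to 9668 called, 3782 to 4385 higher and 4671 to 5288 lower, with 1179 to 1237 higher and 621 to 658 lower by 1 or more. It gave 7058 to 8062 calls against set 22, 8185 to 9115 against set 23, 7995 to 8976 against set 24, 6979 to 7911 in the difference from the seedling contrast and 1996 to 2994 among soil sets. With the replicate letter as a replicate block, 9547 were called, 7633 in the difference between contrasts and 2613 among soil sets. No call on a listed or named gene was lost under the replicate block. Of 295 called genes among the 376 named or listed, 222 were called under every alternative that tested them, and with the set as a random block 55 lost their call, JAL23, GH3.3, SNZ and rbcL among them. Genes near the bottom of the scale are limited by signal over background, and small differences by the number of arrays.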

Other observations

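Some genes fall in families not described above. CCR2 (AT1G80820), a cinnamoyl-CoA reductase of lignin synthesis, was higher by 1.65 (SE 0.18, adjusted p = 7.0e-08), with 26.2, 25.3 and 25.3 in set 100 and 0.928 to 15.5 (median 1.92) in soil plants. JMT (AT1G19640), which methylates jasmonic acid, read 4.99, 10.9 and 1.50 in set 100 and 13.0 to 32.4 (median 26.4) in soil plants, a difference of -1.31 (SE 0.21, adjusted p = 1.2e-05). The groups did not overlap for either gene, where set 100 lay above every soil array for 19.1% of all probe sets and below them all for 23.5%. CCR2 in soil plants and JMT in set 100 read near the bottom of the scale, and neither gene passed the stricter filter. For the 2 families that follow, 27.9% of all probe sets were higher and 34% lower. Of 19 CYP71B cytochromes P450, 11 were measured, with 4 higher and 2 lower, but 2 higher and 1 lower without array 100 A. CYP71B29 and CYP71B5 were higher by 0.91 and 0.91, and CYP71B28 was lower (-0.57), with adjusted p = 1.6e-06, 4.7e-05 and 2.8e-05. Of 40 MADS box genes 8 were measured, with 2 higher and 2 lower, but 1 higher without array 100 A or with the soil set as a random block, and AGL65, a pollen factor, was higher by 0.74 (adjusted p = 3.4e-05), with 65.8, 52.4 and 61.3 in set 100 and 24.4 to 44.5 (median 32.1) in soil plants.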
